A study of Mus musculus with 48 samples.

Results

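The aminoacyl-tRNA synthetase genes were followed in mouse kidney RNA sequencing over a circadian day. A synthetase was taken as a row of the deposited tables whose gene symbol was 1 of 36 listed names, and the 16 names ending in 2 were treated as mitochondrial enzymes and the other 20 as cytosolic ones. All 36 were found among the 49585 genes of the tables, and all 36 were among the 14922 genes that passed the filter on low values. Kidneys came from D-Ala animals (given D-alanine, the right-handed mirror image of ordinary alanine) or from Vehicle animals, in each case at CT0, CT4, CT8, CT12, CT16 and CT20, where CT is circadian time in hours. Each of the 12 groups held 4 libraries, the tissue was labelled kidney and the cell type entry of every library read WT. The design text states that the kidneys came from different mice and that the experiment was run on separate occasions. The 2 deposited tables held 24 libraries each, 2 per group; that each table is 1 such run was inferred. The sources used here do not give the strain, age, sex, dose or route. Values are FPKM (fragments per length of exon, scaled to the size of the library), a unit that allows levels of different genes to be compared per length.

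Aminoacyl-tRNA synthetases attach each amino acid to its own transfer RNA, so every protein a cell makes depends on them. The cytosolic and the mitochondrial translation systems use largely separate sets of enzymes, all of them encoded in the nucleus, and the genes for the lysine and glycine enzymes (Kars and Gars) supply both compartments. Several cytosolic synthetases sit in a multisynthetase complex held together by scaffold proteins, and in mammalian cells many cytosolic synthetase genes are known targets of ATF4, the transcription factor that is made more when uncharged tRNA builds up.

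ATF4 acts through the C/EBP-ATF response element, for which the letters TGATGNAA were searched on both strands from 250 bases before to 50 bases after each annotated start (RefSeq, GRCm38.p6). Of the 36 synthetases, 27 had an entry in the promoter table. The letters stood in 5 of 13 cytosolic promoters (38.5%) and in 0 of 14 mitochondrial promoters, against 4.51% of 27025 genes and 3.97% of 32851 promoters of the same length. The 5 were those of Aars (alanine), Gars (glycine), Iars (isoleucine), Tars (threonine) and Yars (tyrosine). These stretches show what the letters stand in; of the 6 synthetases with an entry that had a 24 h rhythm, described further on, Iars, Tars and Yars held the letters and Dars, Farsa and Mars did not. Each line below gives 30 bases read 5′ to 3′ on the stated strand, with the matched letters in capitals.
Tars, chr15:11399655-11399684, plus strand: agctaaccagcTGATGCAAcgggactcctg
Iars, chr13:49682126-49682155, minus strand: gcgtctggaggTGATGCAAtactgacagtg
Yars, chr4:129189895-129189924, plus strand: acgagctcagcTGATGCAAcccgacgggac
Gars, chr6:55037960-55037989, minus strand: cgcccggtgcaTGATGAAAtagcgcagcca
Aars, chr8:111033840-111033869, minus strand: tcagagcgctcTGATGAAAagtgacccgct
The matches shown lay within 30 bases of the annotated start. A match in these letters is a description of the sequence and not a measured binding site.

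The E-box letters CACGTG, the kind of element that the clock activators CLOCK and BMAL1 bind, stood in 4 of 13 cytosolic promoters (30.8%; Aars, Farsb, Iars and Tars) and in 1 of 14 mitochondrial promoters (7.14%; Ears2), against 8.09% of all genes with an entry. Of the 6 synthetases with an entry that had a 24 h rhythm, Tars and Iars held these letters and Dars, Farsa, Mars and Yars did not. Aars, Farsb and Ears2 held them and were not called rhythmic. The 250 bases before the starts of Tars and Iars, the cytosolic synthetases with the largest 24 h amplitudes, read as follows. Capitals mark the response element in Tars, here on the strand of the gene and so as its reverse complement, and the E-box in Iars.
Tars, chr15:11399659-11399908, minus strand: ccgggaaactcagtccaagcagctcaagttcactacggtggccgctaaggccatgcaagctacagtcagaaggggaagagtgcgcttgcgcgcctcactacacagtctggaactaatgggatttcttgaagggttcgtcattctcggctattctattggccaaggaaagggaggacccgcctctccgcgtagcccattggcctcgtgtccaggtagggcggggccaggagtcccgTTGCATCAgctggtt
Iars, chr13:49681880-49682129, plus strand: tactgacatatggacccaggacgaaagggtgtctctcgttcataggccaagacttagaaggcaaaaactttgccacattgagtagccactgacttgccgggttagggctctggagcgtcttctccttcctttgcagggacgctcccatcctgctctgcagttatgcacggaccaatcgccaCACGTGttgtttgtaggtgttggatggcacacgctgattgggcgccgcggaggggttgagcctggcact
The E-box match of Tars and the response element match of Iars lay after the start and are therefore not in these stretches.

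Libraries held 7626057 to 14403230 fragments, as recovered from the whole-fragment steps of the FPKM values, with a median of 11601134. At that depth, and with the joined length of all annotated exons, the median fragment number of a synthetase ran between 64 for Pars2 and 2077 for Lars2. That length was checked only on genes with a single transcript. The lowest mitochondrial members thus rested on the fewest fragments. Exons of 6 cytosolic and 7 mitochondrial members overlapped those of another gene, and the sources used here do not give the strand setting of the counting, so reads there could be shared. The overlaps were 195 bases between Hars and Hars2, 68 bases between Mars and Ddit3, 2034 bases between Iars2 and Rab3gap2 and 1326 bases between Aars and Exosc6. Iars shared 377 words of 50 bases with Gm4849. The kidney label matched the marker genes: proximal tubule markers summed to 1817 to 4476 FPKM in D-Ala kidneys and 2175 to 4277 FPKM in vehicle kidneys.

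Cytosolic synthetases were expressed at higher levels than mitochondrial ones, with a median member at 10.8 FPKM and 5.85 FPKM over the 48 libraries. The asparagine enzyme Nars was highest of all, at 33.0 ± 5.46 FPKM (SD, n = 48), followed by the serine enzyme Sars at 24.2 ± 4.55 FPKM. The dual glutamate and proline enzyme Eprs was lowest among cytosolic members, at 3.47 FPKM. The order by FPKM depends on the length used for each gene. Annotated exons joined to 18102 bases for Eprs and 2620 bases for Farsb. With these lengths Eprs had a median of 720 fragments and Farsb 513, so the low rank of Eprs is no sign of few fragments. Among mitochondrial members the phenylalanine enzyme Fars2 was highest at 21 FPKM and the leucine enzyme Lars2 came next at 17.6 FPKM. The lowest were Ears2 (2.37 FPKM, glutamate), Pars2 (1.79 FPKM, proline), Wars2 (1.77 FPKM, tryptophan), Nars2 (1.36 FPKM, asparagine) and Mars2 (0.858 FPKM, methionine). Neighbours in the middle of the order, such as Vars, Dars, Tars and Qars between 10.6 and 11.2 FPKM, differed by less than the spread over libraries. The same amino acid could be served at very unequal levels: the asparagine pair stood at 33.0 FPKM for Nars and 1.36 FPKM for Nars2, the phenylalanine pair at 7.67 FPKM for Farsa, 17.3 FPKM for Farsb and 21 FPKM for Fars2.

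**Figure D1:**
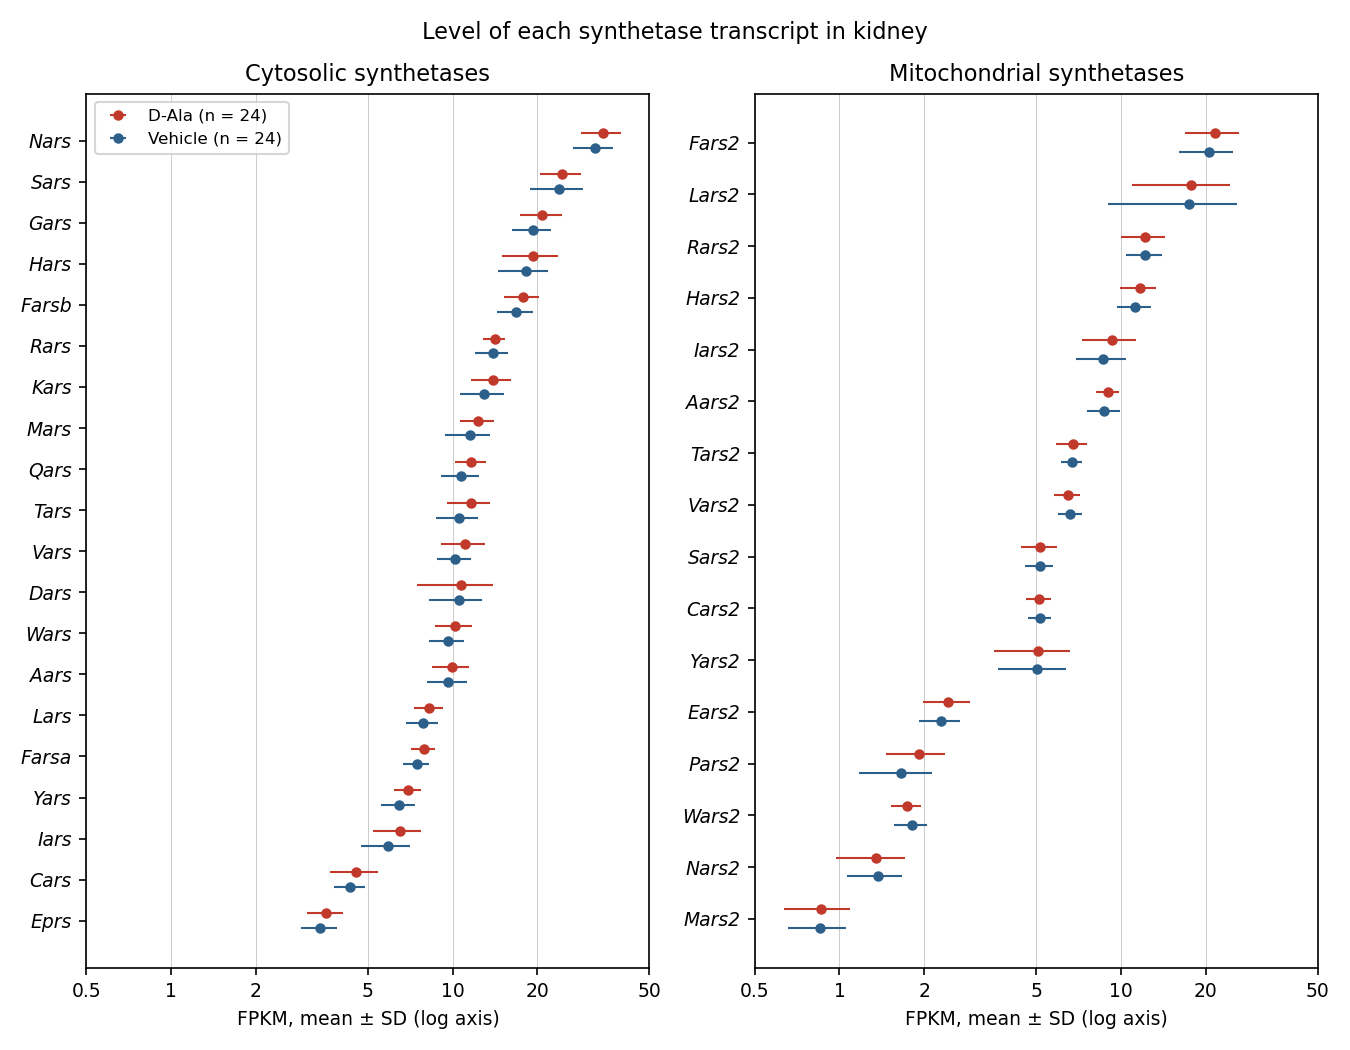
Mean FPKM with SD of the 20 cytosolic and 16 mitochondrial synthetases, on a log axis, over 24 D-Ala libraries (upper point of each pair) and 24 vehicle libraries. Levels run between 0.858 FPKM for Mars2 and 33.0 FPKM for Nars, and the points of the treatments lie within each other's SD for every gene. These SDs pool both deposited tables and so include the difference in level between them, which the fit removes. They therefore do not measure how well the treatments can be told apart.

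The main comparison asks whether D-alanine changed the synthetases on average over the day. None of the 36 passed the test (limma on log2(FPKM + 1), Benjamini-Hochberg over all genes, threshold 0.05, 2-sided), in a comparison that called 259 of 14922 genes (1.74%). Summed cytosolic levels were 203 to 302 FPKM in D-Ala kidneys (median 267) and 193 to 286 FPKM in vehicle kidneys (median 251). Summed mitochondrial levels were 93.2 to 138 FPKM in D-Ala kidneys (median 121) and 91.6 to 141 FPKM in vehicle kidneys (median 113). The ranges of the treatments overlapped almost entirely in both classes. They pool both deposited tables, whose levels differed, so this overlap does not measure the treatment difference within a table. At an unadjusted p under 0.05, 13 of 36 were higher in D-Ala kidneys, 10 cytosolic and 3 mitochondrial, against 20.5% of all genes past that level in either direction.

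The estimated difference was above 0 for 20 of 20 cytosolic synthetases, against 76.3% of all genes, but for 13 of 20 once each library was centred on its median and for 12 of 20 after quantile normalization. Its median over the cytosolic members was 0.08 on the log2(FPKM + 1) scale, the median over all genes was 0.06, and that over the mitochondrial members was 0.00 with 11 of 16 above 0. With library centring these medians were 0.01 for cytosolic members, -0.01 for all genes and -0.07 for mitochondrial members. Rescaling to TPM, which moved the median of all genes to 0.11, called 14 synthetases, all higher in D-Ala kidneys, among 2668 of all genes, and none passed in any of the other 11 alternatives. Genes of the mitochondrial genome, which enter the FPKM denominator, took 37.4 ± 4.33% of summed FPKM in D-Ala libraries and 41.4 ± 3.38% in vehicle libraries of the first table (SD, n = 12 each), and 16.95 ± 1.36% and 19.9 ± 1.95% in D-Ala and vehicle libraries of the second. Each library was also rescaled by its summed FPKM over all other genes, which differs from taking mitochondrial fragments out of the denominator. With this rescaling, 19 of 20 cytosolic and 7 of 16 mitochondrial differences were above 0 and none passed the test. Markers of other cell types also had upward estimates in D-Ala kidneys, with none past the threshold. These were 7 of 7 for endothelium (median 0.17), 4 of 4 for fibroblasts (median 0.18) and 3 of 4 for inner medulla (median 0.26). Adipose tissue had 3 of 3 (median 0.30, the largest of the lists). Of these, Adipoq averaged 0.679 FPKM in D-Ala and 0.0952 FPKM in vehicle kidneys, and Cidec 0.649 and 0.241 FPKM. With vehicle means this low, the filter of 1 FPKM or more in 4 or more libraries favoured markers higher in D-Ala kidneys. The direction of Adipoq and Cidec therefore cannot count as a test. Fabp4 averaged 13.7 FPKM in D-Ala and 10.7 FPKM in vehicle kidneys (estimate 0.29). Proximal tubule (4 of 7, median 0.04) lay near all genes, and thick ascending limb (1 of 3, median -0.04) and lymphocytes (0 of 2, median -0.04) lay on the other side. Inner medulla markers were taken as a rough guide to the papilla in a sample, and what else moves them was not tested. They summed to 11.3 to 651 FPKM in D-Ala kidneys and 13.3 to 307 FPKM in vehicle kidneys. With their score as a covariate, 19 of 20 cytosolic and 12 of 16 mitochondrial estimates were above 0, and the part of the endothelial, fibroblast and adipose shares was not tested.

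The threonine enzyme Tars had the smallest p of the family. Its lowest, median and highest values over both tables were 7.35, 11.7 and 15.2 FPKM in D-Ala kidneys. In vehicle kidneys they were 7.47, 10.4 and 15.6 FPKM. The treatments overlapped over nearly this whole range, which includes the difference between tables. The difference was 0.12 ± 0.04 (log2 scale, SE, 95% interval 0.04 to 0.20, limma adjusted p = 0.0802), and D-Ala was higher in 8 of 12 pairs of time and table. Leaving out the first vehicle library of CT4 or the first D-Ala library of CT12 brought Tars past the threshold (limma adjusted p = 0.0426 and 0.0453). Nars differed by 0.10 ± 0.03 (limma adjusted p = 0.0845, higher in 11 of 12 pairs), at 34.2 ± 5.56 FPKM in D-Ala kidneys and 31.9 ± 5.22 FPKM in vehicle kidneys (SD, n = 24 each). Qars, the glutamine enzyme, averaged 11.7 ± 1.45 FPKM in D-Ala kidneys and 10.7 ± 1.64 FPKM in vehicle kidneys (0.12 ± 0.04, limma adjusted p = 0.0898, 11 of 12 pairs), and passed without the first D-Ala library of CT0 or the second of CT4 (limma adjusted p = 0.0467 and 0.0488). Kars was higher in all 12 pairs with a difference of 0.10 ± 0.04 (limma adjusted p = 0.15). These small upward estimates missed the threshold, and they shrank with library centring to 0.06 for Tars, 0.03 for Nars, 0.05 for Qars and 0.03 for Kars (limma adjusted p from 0.581 to 0.766).

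Mitochondrial members spread on either side of 0. Pars2 had the largest estimate, 0.14 ± 0.05 (limma adjusted p = 0.127, 11 of 12 pairs), at 1.92 ± 0.457 FPKM in D-Ala kidneys and 1.655 ± 0.484 FPKM in vehicle kidneys. That estimate was 0.22 with a pseudocount of 0.1 and with TPM, 0.21 with voom, 0.09 with quantile normalization and 0.07 with centring, and it was 0.23 in the first table and 0.05 in the second. Iars2 (isoleucine) differed by 0.09 ± 0.04 (adjusted p = 0.155) and Fars2 by 0.07 ± 0.03 (adjusted p = 0.212), both by limma. The estimate for Ears2 was 0.06 ± 0.04 (limma adjusted p = 0.444) and turned to -0.01 under quantile normalization and library centring. Wars2 was the lowest, at -0.03 ± 0.03. The alanine enzymes, named here for the amino acid they charge and not by their values, missed the threshold: Aars differed by 0.04 ± 0.04 (adjusted p = 0.616; 95% interval -0.05 to 0.12) and Aars2 by 0.05 ± 0.04 (adjusted p = 0.558), both by limma.

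**Figure D2:**
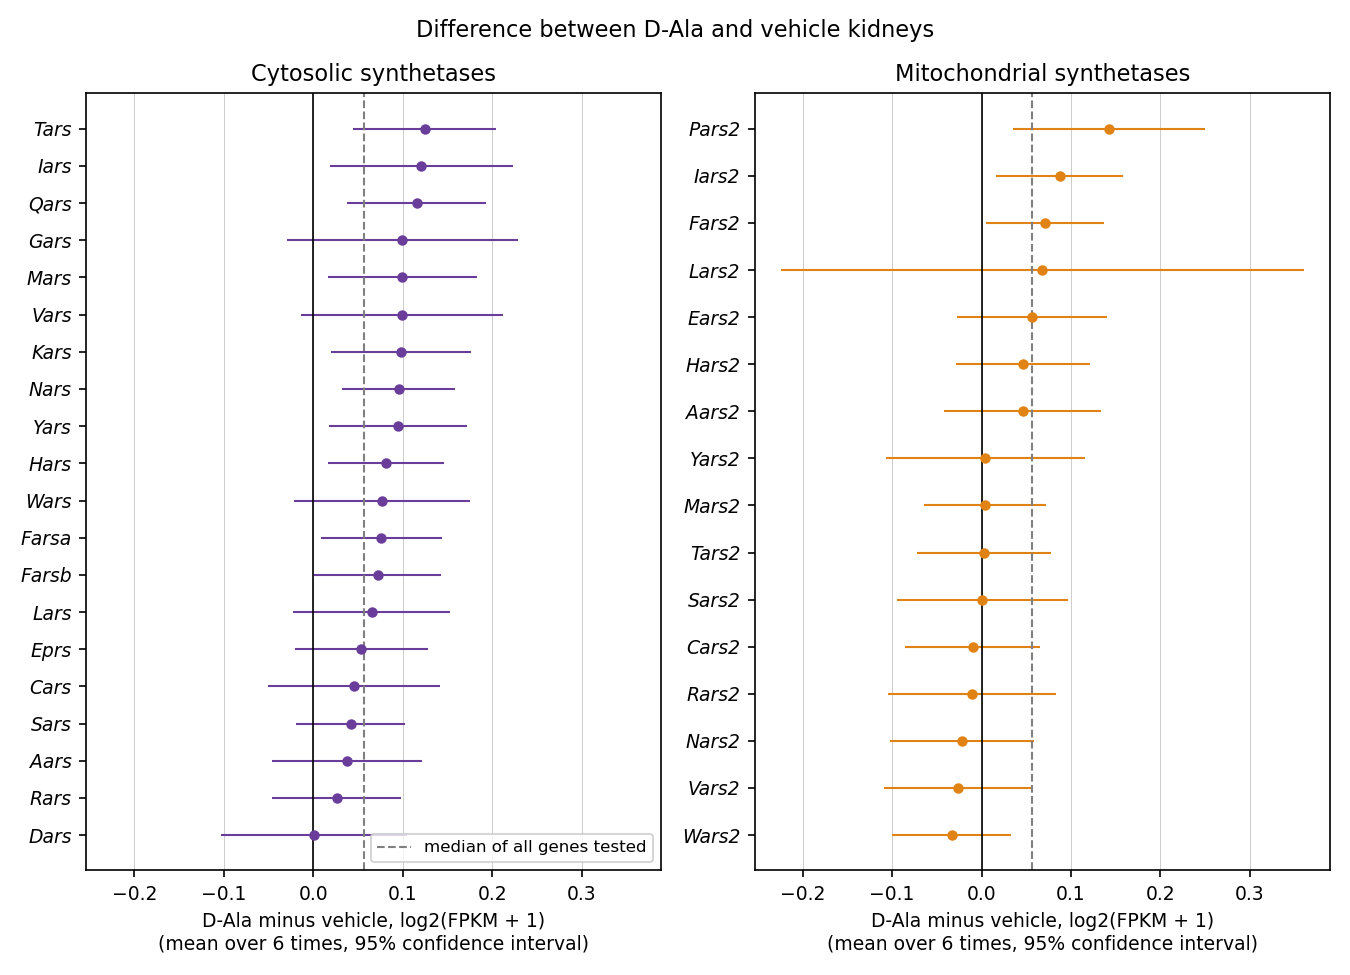
Difference between D-Ala and vehicle kidneys on the log2(FPKM + 1) scale, averaged over 6 times, with its 95% confidence interval, for each cytosolic and mitochondrial synthetase. The dashed line is the median of all genes tested, 0.06. The cytosolic points run from 0.00 for Dars to 0.12 for Tars. The mitochondrial points run from -0.03 for Wars2 to 0.14 for Pars2, and Iars2 and Fars2 also lie above the dashed line.

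At single times none of the 36 passed either, while 1.14% of all genes were called at CT0 (1.11% higher and 0.0268% lower in D-Ala kidneys) and 0% at each of the other 5 times. At an unadjusted p under 0.05 there were 6 members at CT0 (22% of all genes), 1 at CT4 (2.55%), 8 at CT8 (14.8%), 1 at CT12 (2.27%), 2 at CT16 (4.74%) and 0 at CT20 (2.57%). The cytosolic median was 0.17 at CT0, with 17 of 20 above 0 (69.5% of all genes), and 0.13 at CT8, with 20 of 20 above 0 (72% of all genes). The median over all genes was itself 0.12 at CT0 and 0.10 at CT8. At CT4 the cytosolic median was -0.01, with 10 of 20 above 0 (48.5% of all genes). At CT12, CT16 and CT20 it was 0.03, 0.06 and 0.04, with 13, 16 and 14 of 20 above 0 (60.5%, 62.7% and 63.4% of all genes). The mitochondrial median lay between -0.00 and 0.04 at all 6 times.

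Tars gave the clearest separation at one time. At CT0 it had 14, 14.1, 14.3 and 15.2 FPKM in D-Ala kidneys, against 10.8, 10.2, 12.6 and 11.3 FPKM in vehicle kidneys. All D-Ala values lay above all vehicle values, and the difference was 0.33 ± 0.10 (log2 scale, SE, limma adjusted p = 0.0662). Wars, the tryptophan enzyme, was the other synthetase without overlap in that direction at CT0, with 13.2, 10.95, 11.3 and 12.45 FPKM in D-Ala kidneys and 10.4, 8.81, 10.7 and 10.8 FPKM in vehicle kidneys. These 2 of 36 compare with 3.24% of all genes that were higher without overlap at CT0. Sars2, the mitochondrial serine enzyme, lay lower without overlap at CT0, with 4.67, 4.85, 4.98 and 4.85 FPKM in D-Ala kidneys and 5.10, 6.25, 5.64 and 5.14 FPKM in vehicle kidneys, as did 0.415% of all genes. At CT12 Farsa, the catalytic subunit of the phenylalanine enzyme, had 8.31, 7.33, 8.62 and 7.69 FPKM in D-Ala kidneys and 7.21, 7.295, 6.57 and 6.88 FPKM in vehicle kidneys, again without overlap, against 0.911% of all genes. No other synthetase was separated at any time, including CT8, where 6.15% of all genes were higher without overlap; at CT4, CT16 and CT20 that share was 0.536%, 1.19% and 0.603%. Iars had the largest estimate at CT0, 0.38 ± 0.12 (limma adjusted p = 0.0847). The CT0 comparison hung on single libraries: without the first vehicle library of CT0 it called 4 synthetases and 1247 of all genes, and without the second vehicle library 0 of both. It called 2 synthetases without the first or the fourth D-Ala library of CT0 (521 and 741 of all genes), 1 without the third vehicle library (234) and 9 with TPM scaling (2612).

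Neither the difference over time nor the difference over tables passed a test for any synthetase. The treatment by time interaction called 0 of 36 and 0% of all genes (smallest unadjusted p of a member 0.0569 by limma; 0 of 36 under 0.05, against 3.53% of all genes). The treatment by table interaction also called 0 of 36 and 0% of all genes; 4 members (Cars, Mars, Sars and Tars2) were under an unadjusted p of 0.05, against 3.84% of all genes.

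The calls in the family came from the tests of time of day. With the treatments fitted together, a 24 h cosine was called for 8 of 36 synthetases, 7 of 20 cytosolic and 1 of 16 mitochondrial, against 26.5% of all genes (3947 of 14922); 14 of 36 were under an unadjusted p of 0.05, against 39% of all genes. The rhythms were shallow: the median amplitude was 0.08 for cytosolic members, 0.05 for mitochondrial members and 0.10 for all genes, on the log2(FPKM + 1) scale, where the amplitude is the distance from the mean to the peak. The 7 cytosolic genes called all had their fitted peak between CT16 and CT2, as did 52.5% of all genes called rhythmic. The edges of this window lie just outside the earliest and the latest of these 7 peaks. Counts in it therefore describe the peaks and are no test. Over all members, 16 of 20 cytosolic and 8 of 16 mitochondrial peaks fell in that window, against 55% of all genes tested. For scale, Arntl, which encodes the clock activator BMAL1, had an amplitude of 1.05 with a peak at CT22.4, and all 11 core clock genes were called.

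Tars was the most rhythmic synthetase (ENSMUSG00000022241, GRCm38 chr15:11383663-11399658, minus strand). At CT0 the 8 libraries averaged 12.8 ± 1.84 FPKM (SD), and their single values are given above. At CT4 the values were 11.8, 10.3, 11.1 and 12.2 FPKM in D-Ala kidneys and 12.4, 10.3, 11.6 and 10.04 FPKM in vehicle kidneys. At CT8 they were 10.1, 11.1, 11.8 and 12.1 FPKM in D-Ala kidneys and 8.16, 7.47, 11.6 and 9.36 FPKM in vehicle kidneys. The levels were thus lower than at CT0 in the D-Ala kidneys and less clearly so in the vehicle kidneys. At CT12 the D-Ala kidneys had 7.35, 10.1, 11.3 and 9.61 FPKM and the vehicle kidneys 9.47, 9.36, 9.48 and 10.45 FPKM. At CT16 the D-Ala kidneys had 7.81, 9.06, 11.3 and 12.5 FPKM and the vehicle kidneys 8.64, 8.33, 9.68 and 11.6 FPKM. At CT20 the D-Ala kidneys had 11.6, 12.1, 13.1 and 14.3 FPKM and the vehicle kidneys 10.6, 10.4, 13.3 and 15.6 FPKM. Over 8 libraries the trough lay at CT12 and CT16, with means of 9.64 ± 1.13 and 9.88 ± 1.74 FPKM, and CT20 stood at 12.6 ± 1.80 FPKM. Vehicle kidneys alone had their lowest mean at CT8, 9.14 ± 1.80 FPKM.

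The fitted rhythm of Tars had an amplitude of 0.20 ± 0.03 (SE) and a peak at CT23.4 (limma adjusted p = 6.51e-06), a peak 1.33-fold above the trough on the FPKM + 1 scale. It was called in each table alone, with an amplitude of 0.24 and a peak at CT0.455 in the first (limma adjusted p = 0.00556) and an amplitude of 0.19 and a peak at CT22.1 in the second (limma adjusted p = 0.00331). Fitted apart, Tars was also the 1 synthetase called in D-Ala kidneys (amplitude 0.24, peak CT24.0, limma adjusted p = 0.000599; 8.3% of all genes called) and the 1 called in vehicle kidneys (amplitude 0.18, peak CT22.7, limma adjusted p = 0.0143; 9.77% of all genes called). At an unadjusted p under 0.05 there were 7 synthetases in D-Ala kidneys (23.2% of all genes) and 11 in vehicle kidneys (24.3% of all genes). The D-Ala rhythm of Tars was lost in 1 of 12 alternatives, the second table alone (limma adjusted p = 0.102). Its vehicle rhythm was lost in 3, without a table term (0.114), in the first table (0.297) and in the second (0.0876). The test of a difference in rhythm between treatments called 0 of 36 synthetases and 0% of all genes, and no member was under an unadjusted p of 0.05, against 2.37% of all genes.

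**Figure D3:**
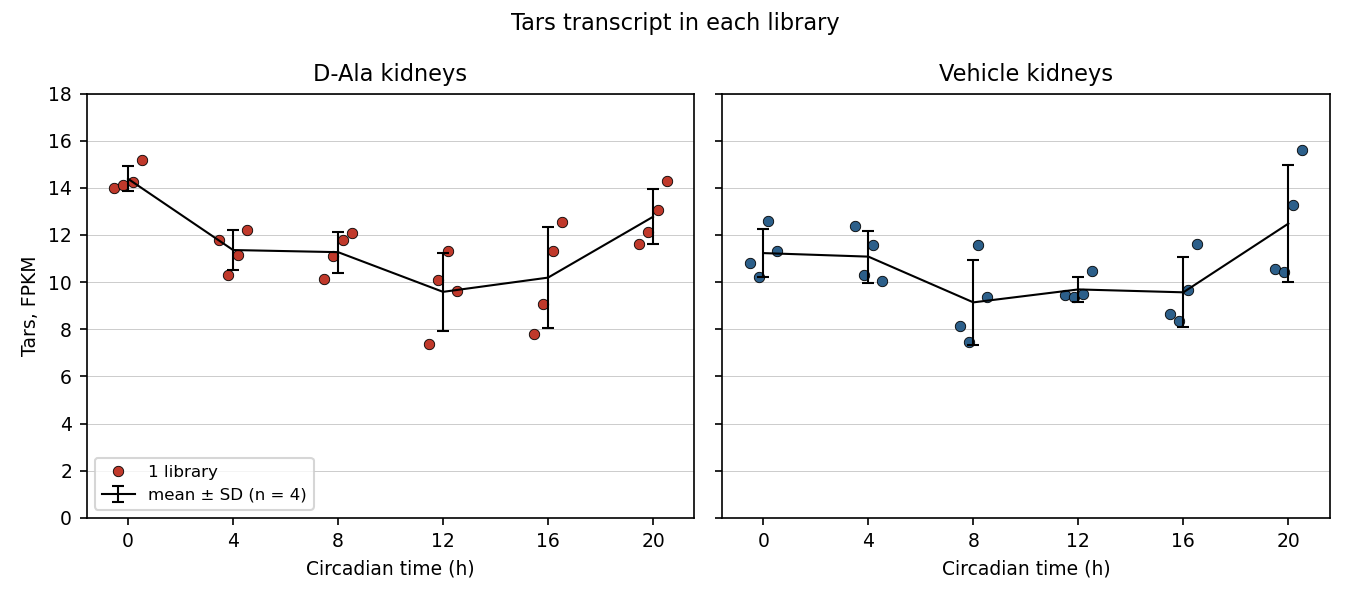
Tars FPKM in every library at 6 circadian times, D-Ala kidneys on the left and vehicle kidneys on the right, with the mean and SD of 4 libraries in black. Values are highest at CT20 and CT0 and lowest at CT12 and CT16 in D-Ala kidneys and at CT8 to CT16 in vehicle kidneys, and the 4 D-Ala libraries of CT0, between 14 and 15.2 FPKM, lie above the 4 vehicle libraries.

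Iars, the isoleucine enzyme (ENSMUSG00000037851, GRCm38 chr13:49682100-49734267, plus strand), was called with an amplitude of 0.16 ± 0.04 and a peak at CT20.9 (limma adjusted p = 0.00557). Over 8 libraries its lowest, median and highest values were 5.22, 7.07 and 8.48 FPKM at CT20 and 4.095, 5.49 and 6.47 FPKM at CT12. The times overlapped in single libraries although their medians were apart. In the first table alone Iars was not called (amplitude 0.14, limma adjusted p = 0.332); in the second it was (amplitude 0.18, limma adjusted p = 0.00482).

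Farsa (ENSMUSG00000003808, GRCm38 chr8:84856989-84869257, plus strand) had an amplitude of 0.11 ± 0.02 and peaked earlier, at CT18.5 (limma adjusted p = 0.00172). Its lowest, median and highest values were 7.63, 8.505 and 8.89 FPKM at CT16 and 6.41, 6.885 and 8.41 FPKM at CT8. Of the CT8 libraries 1, a D-Ala library at 8.41 FPKM, lay within the CT16 range and the rest lay below the lowest CT16 value. Its partner subunit Farsb was not called (amplitude 0.07, peak CT23.9, limma adjusted p = 0.0603). Farsa rested on the second table (amplitude 0.16, limma adjusted p = 0.000237) and was not called in the first (amplitude 0.06, limma adjusted p = 0.492).

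Pars2, the mitochondrial proline enzyme (ENSMUSG00000043572, GRCm38 chr4:106651069-106655282, plus strand), was the exception in phase and in compartment, with an amplitude of 0.15 ± 0.04 and a peak at CT6.15 (limma adjusted p = 0.00568). At CT4 it had 2.345, 2.53, 2.485 and 2.45 FPKM in D-Ala kidneys and 1.38, 1.62, 1.95 and 2.42 FPKM in vehicle kidneys. At CT16 it had 1.61, 1.17, 1.61 and 2.685 FPKM in D-Ala kidneys and 1.34, 1.035, 1.33 and 1.99 FPKM in vehicle kidneys. The D-Ala values of CT4 were tightly grouped and all but 2 of the other libraries at these times lay below them. Pars2 was called in the first table (amplitude 0.21, limma adjusted p = 0.0113) and not in the second (amplitude 0.105, limma adjusted p = 0.284), and it is the synthetase with the fewest fragments. Its amplitude was 0.23 with a pseudocount of 0.1 and 0.24 with voom, above the 0.22 of Tars in both, so the order of the 2 turns with the handling of low values.

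Of the other calls, Dars, the aspartate enzyme (GRCm38 chr1:128363707-128417368, minus strand) had an amplitude of 0.13 ± 0.04 and a peak at CT1.86 (limma adjusted p = 0.0147) and was called in neither table alone. Nars had 0.09 ± 0.02 with a peak at CT23.0 (limma adjusted p = 0.00795); its median over 8 libraries was 34.1 FPKM at CT0 and 29.3 FPKM at CT12. It too was called in neither table alone (limma adjusted p = 0.215 and 0.0842), nor with library centring (0.126) or without a table term (0.367). Yars (GRCm38 chr4:129189760-129219607, plus strand) had 0.10 ± 0.03 with a peak at CT20.0 (limma adjusted p = 0.0173), and its median was 7.54 FPKM at CT0 and 6.28 FPKM at CT8. It was lost in 4 of 12 alternatives (limma adjusted p from 0.0755 to 0.276), among them the first table alone. Mars, the methionine enzyme (GRCm38 chr10:127296221-127311786, minus strand), had 0.09 ± 0.03 with a peak at CT16.2 (limma adjusted p = 0.035) and missed the threshold in 6 of 12 alternatives, each table alone among them (limma adjusted p = 0.281 and 0.126). Mars shares exon bases with Ddit3, the stress factor CHOP, which had an amplitude of 0.31 with a peak at CT16.9 (limma adjusted p = 0.000752); the part of shared reads in the Mars rhythm was not tested.

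**Figure D4:**
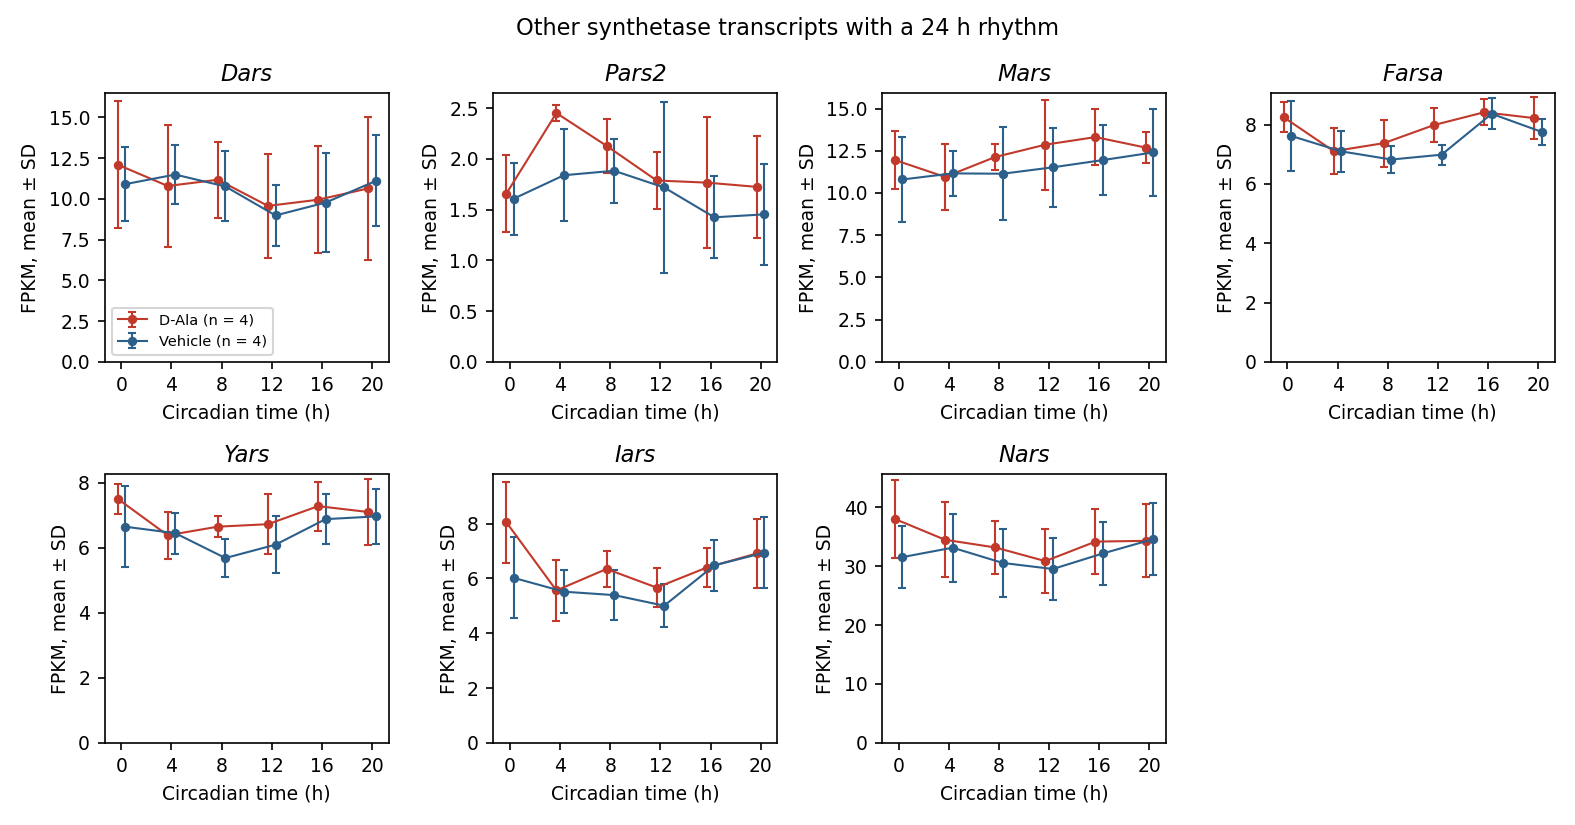
FPKM at 6 circadian times of the 7 synthetases other than Tars that were called rhythmic, as mean and SD of 4 libraries, D-Ala in red and vehicle in blue. Pars2 is highest at CT4 and CT8, Dars and Nars are lowest at CT12, and Farsa, Iars and Yars are high from CT16 to CT0; error bars overlap between most times.

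**Figure D5:**
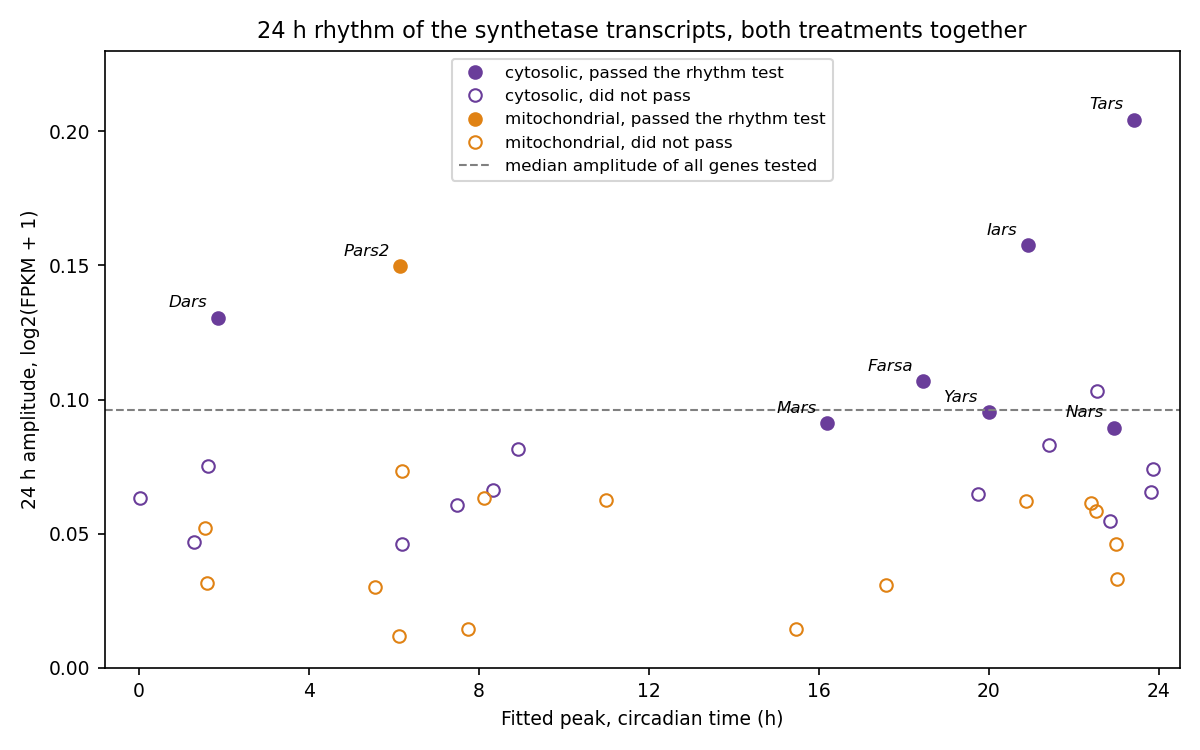
Fitted 24 h amplitude on the log2(FPKM + 1) scale against fitted peak time for the 36 synthetases, with those called rhythmic filled. The 7 cytosolic calls lie between CT16.2 and CT1.86, Tars is highest at 0.20 with this pseudocount of 1, and Pars2 stands apart at CT6.15; the dashed line is the median amplitude of all genes tested, 0.10.

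A test of time that assumes no curve called 6 of 36, against 20.5% of all genes (11 of 36 against 34.8% unadjusted): Tars, Iars, Farsa and Nars again, and among mitochondrial members Pars2 and Fars2. Fars2 (limma adjusted p = 0.0359) had means of 22.8 ± 4.02 FPKM at CT4 and 22.0 ± 5.56 FPKM at CT12 with 20.8 ± 5.03 FPKM between them, and its 24 h cosine was not called (amplitude 0.06, limma adjusted p = 0.159), except in the second table alone (amplitude 0.11, limma adjusted p = 0.0455). The other mitochondrial members with the largest amplitudes, Rars2 (arginine, 0.07 ± 0.03, limma adjusted p = 0.172) and Lars2 (0.06 ± 0.10, limma adjusted p = 0.872), were not called. Without the third vehicle library of CT12 the test of time called 3 synthetases.

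In bulk tissue, fewer cells of a type and less RNA per cell cannot be told apart, and markers of several other kidney cell types moved over the same hours as the cytosolic synthetases. Of 4 fibroblast markers 4 were called rhythmic, with peaks from CT22.5 to CT0.977 and summed levels of 14.25 to 49.3 FPKM in D-Ala kidneys and 15.7 to 36.2 FPKM in vehicle kidneys. Of 7 endothelial markers 4 were called, with peaks from CT19.3 to CT23.7 and sums of 37.5 to 161 FPKM in D-Ala kidneys and 30.4 to 88.9 FPKM in vehicle kidneys. Of 5 red blood cell genes 4 were called, with peaks from CT23.3 to CT0.059 and sums of 129 to 457 FPKM in D-Ala kidneys and 92.1 to 442 FPKM in vehicle kidneys. Each of these markers averaged above 1 FPKM in both treatments. Podocytes (3 of 4 called, peaks from CT22.6 to CT1.50) peaked at like hours, and the distal convoluted tubule (2 of 3, CT22.9 and CT2.66) at or just after them. Proximal tubule, the main cell type, was the opposite, with 3 of 7 called (Slc5a12, Slc34a1 and Slc27a2) and peaks from CT6.77 to CT10.0. Other lists had 0 calls or 1: thick ascending limb (1 of 3), intercalated cells (1 of 4), lymphocytes (1 of 2), principal cells (0 of 4), macrophages (0 of 3) and adipose tissue (0 of 3). Over all genes 26.5% were called rhythmic, and 52.5% of those peaked between CT16 and CT2. Of 4 inner medulla markers 0 were called rhythmic. When their score entered the fit, 12 synthetases and 5027 of all genes were called rhythmic, 7 of the 12 being among the 8 and Mars being the one lost. The part of the fibroblast, endothelial and red cell shares in the rhythms was not tested.

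The residual SD within groups was at most 0.23 on the log2(FPKM + 1) scale for every member but Lars2, a scale that compresses the spread of the lowest members. Lars2 had a residual SD of 0.52, higher than that of 93.2% of all genes, and values between 7.58 and 36.2 FPKM. It differed by 0.31 ± 0.20 between D-Ala and vehicle kidneys in the first table and by -0.18 ± 0.19 in the second, so its pooled estimate of 0.07 ± 0.14 has an interval from -0.22 to 0.36 and bounds little. Mean FPKM also differed between tables, with ratios of the second over the first from 0.818 for Hars2 to 1.59 for Yars2; Lars2 stood at 1.58, Dars at 1.54 and Mars2 at 1.52, and the fit carries the table as a term.

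Genes around the synthetases were read from lists chosen by function, with earlier results of these data known. Cytosolic elongation factors, which bring charged tRNA to the ribosome, recycle its carrier or move the ribosome along, were the one list with calls for treatment: 2 of 5 tested rose and none fell, against 1.59% of all genes higher. Eef2, the translocation factor, averaged 444.5 ± 97.5 FPKM in D-Ala kidneys and 401 ± 98.2 FPKM in vehicle kidneys (0.16 ± 0.04, limma adjusted p = 0.0426). Eef1g, part of the exchange complex that recycles the tRNA carrier, averaged 98.5 ± 12.3 FPKM in D-Ala kidneys and 91.0 ± 13.4 FPKM in vehicle kidneys (0.12 ± 0.03, limma adjusted p = 0.0323). Both estimates stayed above 0 in all 12 alternatives, but the call was lost in 7 of them for Eef2 and 6 for Eef1g, among them library centring (limma adjusted p = 0.349 and 0.564), quantile normalization (0.233 and 0.199) and each table alone. Leaving out single libraries lost the call of Eef2 in 26 of 48 cases and that of Eef1g in 6. Eef1a1 and Eef1b2 had estimates of 0.14 and 0.12 (limma adjusted p = 0.0727 and 0.0641), and Eef1d 0.01.

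The 3 scaffold proteins of the multisynthetase complex gave no call for treatment (Aimp1 0.07, Aimp2 0.08, Eef1e1 -0.04). Eef1e1, also called AIMP3, was rhythmic with an amplitude of 0.18 and a peak at CT22.2 (limma adjusted p = 0.000263), and was called in D-Ala kidneys (adjusted p = 0.0297) and in vehicle kidneys (adjusted p = 0.0385) apart, both by limma. Aimp1 and Aimp2 were not called rhythmic.

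Of 11 tested genes for tRNA charging, editing and maturation, 0 were called for treatment, against 1.74% of all genes. Dtd1, which clears D-amino acids from tRNA, averaged 5.95 ± 1.22 FPKM in D-Ala kidneys and 5.94 ± 1.09 FPKM in vehicle kidneys (-0.00 ± 0.05, limma adjusted p = 0.987). Its relative Dtd2 averaged 4.47 ± 1.42 FPKM in D-Ala kidneys and 4.11 ± 1.04 FPKM in vehicle kidneys (0.08 ± 0.05, limma adjusted p = 0.31). In this list 4 of 11 genes were rhythmic, against 26.5% of all genes: Dtd2, Trnt1, Gatc and Ankrd16. Ankrd16, an alanine editing cofactor, had an amplitude of 0.28 and a peak at CT9.47 (limma adjusted p = 1.26e-05). Of 9 mitochondrial translation factors 0 were called for treatment, with a median of 0.05. Of the same 9, Tsfm and Mrrf were rhythmic, against 26.5% of all genes.

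Of 20 tested genes of the ATF4 and amino acid response 0 were called for treatment, against 1.74% of all genes. Estimates were above 0 for 17 of 20, against 76.3% of all genes, with a median of 0.07. Atf4 itself averaged 76.6 ± 30.5 FPKM in D-Ala kidneys and 63.4 ± 11.5 FPKM in vehicle kidneys (0.23 ± 0.07, limma adjusted p = 0.0691). Atf5 had 0.33 ± 0.11 (limma adjusted p = 0.0802), and Asns, the asparagine synthetase gene used as a readout of the response, 0.05 ± 0.10 (limma adjusted p = 0.789). In this list 6 of 20 genes were rhythmic, against 26.5% of all genes. Among them was Atf4, with an amplitude of 0.21 and a peak at CT19.1 (limma adjusted p = 0.0114). Of 8 genes for sensing uncharged tRNA and phosphorylating eIF2alpha 0 were called. All 8 were above 0, against 76.3% of all genes, with a median of 0.12. Gcn1l1, the activator of the uncharged tRNA sensor GCN2, had the smallest p (0.12 ± 0.04, limma adjusted p = 0.0821).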

How the data were processed

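RNA was taken from mouse kidney with an RNeasy kit and made into SMARTER libraries, per the labels' protocols. The authors deposited FPKM values per gene in 2 tables; the builds GRCm38 and mm10 come from the submitters' processing notes, and no aligner or counter is named there. The whole-fragment check used values under 20 fragments of nuclear genes with a single annotated transcript. Of these values 97% to 97.7% corresponded to whole fragments (tolerance 0.05), with the library size set from the same values. Most synthetases have several transcripts, so the joined exon length behind their fragment numbers was assumed and not checked. Genes at 1 FPKM or more in 4 or more libraries were put on the log2(FPKM + 1) scale and fitted by limma (version 3.58.1, under R 4.3.3), with 12 groups or a 24 h cosine and sine plus the table as terms, and p-values adjusted by Benjamini-Hochberg over all genes at 0.05, 2-sided. The fit was tested on simulated data. P-values measure the spread between these libraries. Libraries within a group are numbered in accession order, which pairs nothing. Full values went to members past a threshold, and in each class to the 4 with the smallest treatment p and the 4 with the largest amplitude. The members and lists were chosen with earlier results of these data known. The alternatives, listed with their effects at the end, included voom on recovered fragments and an inner medulla covariate, both added after seeing the data. 1 promoter match is not reported here.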

Additional observations from a re-analysis of the deposited data

Results flagged for a closer look

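The highest library stood apart from the other 3 of its group in 3 of the 96 groups checked (8 rhythmic synthetases, 12 groups each), where chance gives about 1 in 20. Each group mixes 2 libraries of each table. Dars in D-Ala kidneys at CT20 had 8.957 and 17.17 FPKM in the second table and 7.575 and 8.871 FPKM in the first; the gap lay below 17.17, but Dars averaged 1.54 times as much in the second table as in the first, so which second-table library is the odd one cannot be told. Tars in vehicle kidneys at CT12 had 9.482 and 10.45 FPKM in the second table and 9.468 and 9.355 FPKM in the first. Pars2 in vehicle kidneys at CT0 had 1.376 and 2.136 FPKM in the second table and 1.48 and 1.442 FPKM in the first. The rhythms of Tars and Pars2 stayed past the threshold when any 1 of the 48 libraries was left out, and so did that of Dars.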

How the results depend on the processing

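No paired analysis was possible because the labels carry no replicate numbers. For the mean difference, TPM scaling called 14 synthetases (2668 of all genes) and the other 11 alternatives none. At CT0, TPM scaling called 9 (2612 of all genes). The mitochondrial median was 0.0554 with TPM, -0.04945 with quantile normalization and -0.0654 with library centring, and Ears2 turned to -0.0091 and -0.0137 under the last 2. The pooled rhythm was called for 3 members without a table term (2094 of all genes) and for 3 in the first table (1831 of all genes). In vehicle kidneys the rhythm count was 4 with quantile normalization (1522 of all genes), 3 with centring (1495) and 3 without mitochondrially encoded genes in the scaling (1455). It was 0 without a table term (599 of all genes), 0 in the first table (266) and 5 with the inner medulla covariate (1712). In D-Ala kidneys it was 2, 2 and 4 with quantile normalization, centring and the covariate (1195, 1092 and 2302 of all genes). The test of time without a curve called 2 without a table term (1342 of all genes), 1 in the first table (1178) and 3 in the second (1033). Leaving out 1 library at a time gave 0 to 1 members for the mean difference, 0 to 4 at CT0, 7 to 11 for the pooled rhythm, 1 to 3 in vehicle kidneys, 1 to 2 in D-Ala kidneys and 3 to 8 for time without a curve. Over all genes the ranges were 0 to 1247 at CT0 and 3495 to 4524 for the pooled rhythm. They were 1148 to 1660 in vehicle kidneys, 919 to 1593 in D-Ala kidneys and 2549 to 3276 for time without a curve. The count over all genes for the mean difference ran from 93 without the third vehicle library of CT4 to 631 without the first of CT12. The causes were not tested, beyond the fewer libraries within 1 table. Depth limits Pars2 most, at a median of 64 fragments.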

Other observations

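Within the 2 deposited tables, Lars2 levels followed those of Gm42418 over the 48 libraries. Gm42418 is a predicted gene whose reads are widely handled as ribosomal RNA, and it was chosen after its values were seen. Gm42418 ran from 460 to 1367 FPKM in D-Ala libraries and 442 to 1234 FPKM in vehicle libraries of the first table, and from 276 to 886 FPKM in D-Ala libraries and 398 to 1010 FPKM in vehicle libraries of the second. Among the 36 synthetases Lars2 had the highest correlation with it. Pearson's r was 0.704 on the log2 scale, after the mean of each table was subtracted from both genes. The rank correlation of these centred values, with the ranks also centred within tables, was 0.720. No p is given because Gm42418 was picked for its values. Without the 2 libraries farthest from the median of Gm42418 r was 0.706, and within the tables it was 0.635 in the first and 0.788 in the second. Sars was next with r of 0.530.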
